A study of Mus musculus with 36 samples.

Results

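The steatohepatitis chemokines described here are 10 genes, namely the ligands Ccl2, Ccl5, Ccl6, Ccl24, Cxcl1, Cxcl9, Cxcl10, Cxcl12 and Cxcl16 and the receptor Ccr2. They were found by symbol among the 24421 genes counted in every library, and all 10 were present. The question was how their RNA differed in the livers of mice treated with Fc(mML1)B3, a mimetic of hepatocyte growth factor made by grafting a macrocyclic Met-binding peptide into a loop of an antibody Fc fragment, and in those treated with Fc, the same kind of fragment without the peptide. All 36 mice were C57BL/6J males fed for 12 weeks on the CDAHFD, a diet rich in fat and lacking choline on which mice develop steatohepatitis and fibrosis. In the HFD experiment the mice then received a high-fat diet for 2 weeks with weekly subcutaneous Fc at 4.3 mg/kg (n = 10) or Fc(mML1)B3 at 5 mg/kg (n = 10). In the standard diet experiment they received standard chow for 10 days and injections on days 1, 4 and 7 of Fc at 4.3 mg/kg (n = 9) or Fc(mML1)B3 at 5 mg/kg (n = 7). No liver from before treatment or from a mouse never given the CDAHFD was analysed here, so that every value is a level after diet injury.

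Chemokines are small secreted proteins that bind to G protein-coupled receptors on leukocytes and draw those cells along a gradient. In steatohepatitis, injured hepatocytes, resident macrophages called Kupffer cells, stellate cells and endothelial cells release them, and the recruited monocytes, neutrophils and T cells add to inflammation and scarring. CCL2 and its receptor CCR2 bring blood monocytes into the liver, CXCL1 attracts neutrophils through CXCR2, CXCL9 and CXCL10 are induced by interferon-gamma and attract activated T and NK cells through CXCR3, and CCL5 attracts T cells and monocytes through receptors that include CCR1 and CCR3. CXCL16 is made as a membrane protein that also takes up oxidised lipids and whose soluble form attracts CXCR6-bearing cells, CXCL12 binds CXCR4 and ACKR3 and holds leukocytes and progenitors in tissue, CCL24 is an eotaxin that acts through CCR3, and CCL6 is a macrophage and neutrophil product of rodents that acts through CCR1.

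Total counts per library ranged from 14949035 to 28466853 with a median of 23558194.5. The 10 genes were counted in every library and never at 0. The median over the 36 libraries ran from 41.5 reads for Ccl24 and 50.5 for Ccl2 to 10936 for Cxcl12, and the lowest single count was 6 reads, for Ccl24. Levels below are counts per library total after TMM scaling, in the usual unit CPM, and per kilobase of exon where genes are compared with each other. The exons of Cxcl16 overlap those of Zmynd15, whose reads the unstranded counting could not separate. Those of the other 9 genes overlapped no gene. The tissue label was checked with 9 hepatocyte markers, among them Alb and Apoa1, whose summed level was between 78001 and 160777 CPM in all libraries. In the HFD experiment all 10 Fc libraries were taken as 1 series, and the Fc(mML1)B3 libraries, by their names, as others of 4 and 6. These 2 do not overlap and hold mice 1 to 4 (libraries S1 to S4) and mice 5 to 10 (libraries S1 to S6). The library numbers alone also allow other groupings, since Fc libraries S7 to S10 could follow treated libraries S1 to S6. With the series taken so, treatment and library series cannot be told apart there. Under the standard diet 4 Fc libraries shared a series with all 7 Fc(mML1)B3 libraries, and 5 Fc libraries were in another. HFD Fc mice 7 and 8 stood apart in 9 neutrophil markers, with a summed 81.2 and 82.4 CPM against at most 25.1 CPM in the other 8 Fc mice, and so did Fc mouse 5 of the standard diet, with 79.8 CPM against at most 17.8 CPM.

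On mm10, Ccl2 (chromosome 11, 82035577 to 82037452, plus strand), Ccl5 (83525779 to 83530518, minus strand), Ccl6 (83587886 to 83593087, minus strand) and Cxcl16 (70454234 to 70459984, minus strand) are on chromosome 11. Cxcl1 (90891245 to 90893115, plus strand), Cxcl9 (92321331 to 92328079, minus strand), Cxcl10 (92346639 to 92348889, minus strand) and Ccl24 (135569937 to 135573043, minus strand) are on chromosome 5. Cxcl12 is on chromosome 6 (117168535 to 117181368, plus strand) and Ccr2 on chromosome 9 (124102183 to 124109140, plus strand). The 250 bases before the start site were read from RefSeq on GRCm38.p6, which shares its coordinates with mm10, for 6 of the genes, Cxcl1, Cxcl9, Cxcl10, Cxcl12, Ccl6 and Ccr2. Those of Ccl2, Ccl5, Ccl24 and Cxcl16 were not used here. Both strands were searched for the NF-kB consensus, for the interferon-stimulated response element (TTTC, any 2 bases, TTTC) and for the letters TTCNNNGAA of the STAT site named GAS. Of 32851 such windows in the table, 3.9% held the NF-kB consensus, 2.98% held the first of the interferon motifs and 7.02% held the GAS letters. Among the 6 genes, the NF-kB consensus stood in the windows of Cxcl1 and Cxcl10, the interferon-stimulated letters in that of Cxcl10, and the GAS letters in none. The windows of Cxcl1 (5:90890995-90891244, plus strand), Cxcl10 (5:92348890-92349139, minus strand) and Cxcl9 (5:92328080-92328329, minus strand) are shown because these CXC ligands are targets of the NF-kB and interferon pathways whose genes are counted further on. They read 5′ to 3′ along the gene, and capitals mark the matches.
Cxcl1: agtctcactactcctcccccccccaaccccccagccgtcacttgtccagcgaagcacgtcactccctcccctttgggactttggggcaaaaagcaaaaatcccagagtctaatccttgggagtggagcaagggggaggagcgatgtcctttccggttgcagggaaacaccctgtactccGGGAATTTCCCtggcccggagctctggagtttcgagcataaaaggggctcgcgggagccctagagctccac
Cxcl10: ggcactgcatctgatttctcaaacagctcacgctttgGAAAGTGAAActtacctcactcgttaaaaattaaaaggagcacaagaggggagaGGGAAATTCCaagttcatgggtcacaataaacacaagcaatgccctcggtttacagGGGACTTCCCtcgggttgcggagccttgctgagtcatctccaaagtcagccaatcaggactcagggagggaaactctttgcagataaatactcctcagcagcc
Cxcl9: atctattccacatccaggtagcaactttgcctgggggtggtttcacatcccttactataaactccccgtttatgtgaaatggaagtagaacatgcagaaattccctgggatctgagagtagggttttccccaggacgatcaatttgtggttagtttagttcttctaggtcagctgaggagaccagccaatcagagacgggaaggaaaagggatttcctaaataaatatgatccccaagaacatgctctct
In Cxcl1 a pair of NF-kB matches overlapped, with first bases at -71 and -70 from the start site. In Cxcl10 the interferon match began at -213 and the NF-kB matches at -159 and -103. The Cxcl9 window held none of these letters. A match in letters is a description and not a measured binding site.

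Compared per kilobase, Cxcl12 was the most abundant of the 10, with a median of 69.8 CPM per kilobase over the 36 mice and a range of 53.6 to 95.1. Ccl6 followed with 17.8, Cxcl1 with 10.0, Ccl5 with 9.33 and Cxcl16 with 8.56. Cxcl10 (5.98), Cxcl9 (5.90), Ccl2 (3.31), the receptor Ccr2 (2.50) and Ccl24 (1.49) were lowest. The range of Cxcl12 lay above those of all other members, while each other pair of neighbours in this order overlapped across mice. The spread between mice differed too. Cxcl12 varied 1.77-fold between the lowest and highest mouse, Cxcl16 2.81-fold, Ccl5 7.47-fold and Ccl24 18.6-fold.

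**Figure D1:**
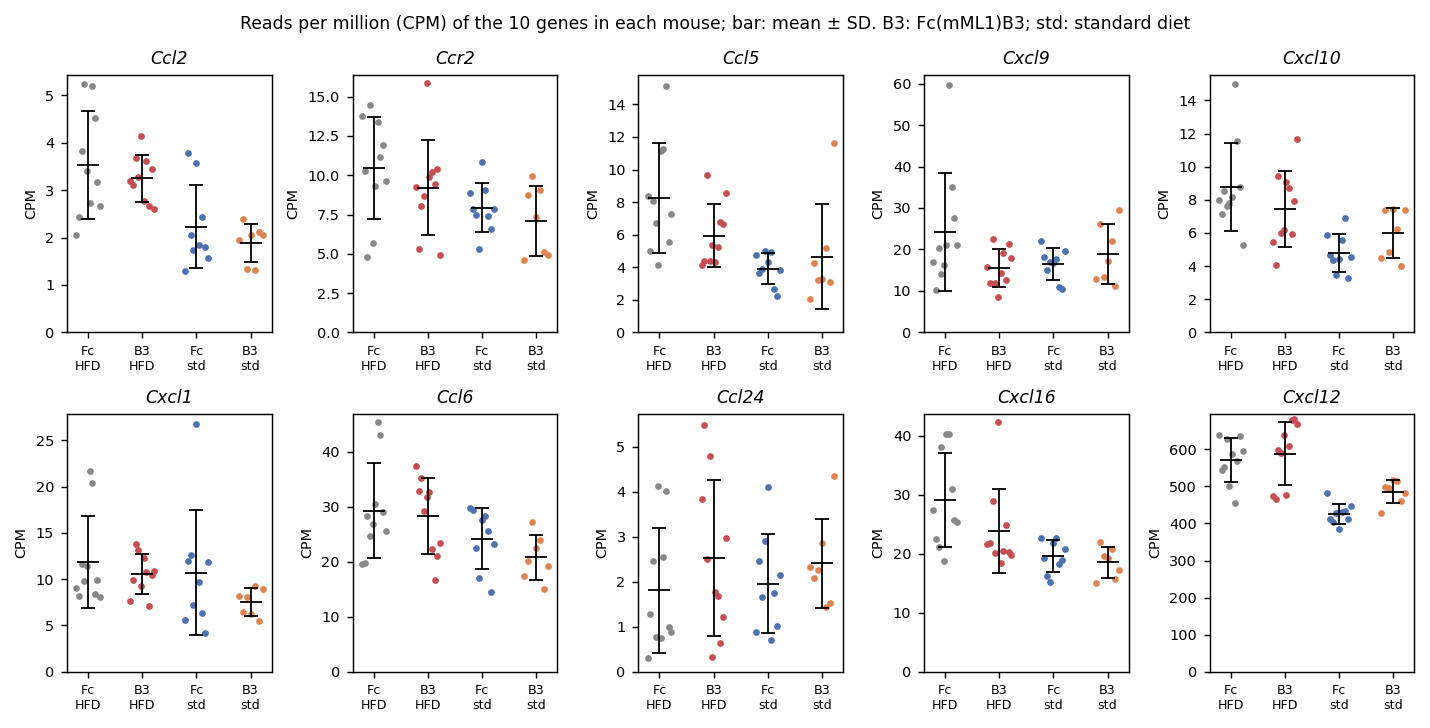
CPM of each of the 10 genes (y axis, from 0) in each mouse (points) of the 4 groups (x axis), with the group mean and SD as bars. The 2 HFD groups overlap for every gene, and Cxcl12 has means of 426 and 486 CPM in the standard diet groups.

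Under the HFD, none of the 10 genes passed the test between Fc(mML1)B3 and Fc. By edgeR's quasi-likelihood test, 0 of 10 had an adjusted p below 0.05 while 14.8% of the 13299 genes tested did (6.68% lower and 8.14% higher). At an unadjusted p below 0.05 there were 2 of the 10, Cxcl9 and Ccl5, where 29.8% of all genes were, and DESeq2 called 0. The fold change was below 0 for 8 of the 10, with a median of -0.17 on the log2 scale, against 51.7% and -0.01 over all genes tested. Without Fc mice 7 and 8 it was below 0 for 6 of the 10, with a median of -0.062. For no member did the groups fail to overlap, as was the case for 0.962% of all genes. At the stricter rule of an adjusted p below 0.1 and a fold above 2, 0 of 10 members passed under either diet or in the interaction, where 1.34%, 0.604% and 1.92% of all genes did.

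Cxcl9 and Ccl5 had the smallest p-values of the 10 under the HFD. Cxcl9 ranged from 10.3 to 59.6 CPM with a median of 20.7 in the Fc mice and from 8.50 to 22.6 CPM with a median of 15.1 in mice given Fc(mML1)B3. The groups overlapped between 10.3 and 22.6 CPM, and 8 of 10 treated mice were below the Fc median. Its log2 fold change was -0.63 (standard error, SE, 0.25, unadjusted p = 0.0175, adjusted p = 0.0877 from edgeR). Fc mice 7 and 8 held the highest values, 59.6 and 35.1 CPM, and without them the log2 fold change was -0.24 (adjusted p = 0.421). Without Fc mouse 2, the lowest of that group, it was -0.71 and passed (adjusted p = 0.0489 from edgeR). Ccl5 ranged from 4.16 to 15.2 CPM with a median of 7.68 in the Fc mice and from 4.14 to 9.69 CPM with a median of 5.30 in the treated mice, a log2 fold change of -0.47 (SE 0.21, adjusted p = 0.147 from edgeR). The highest value was that of Fc mouse 8, and without mice 7 and 8 the log2 fold change was -0.23. Cxcl10 was at 8.79 ± 2.67 CPM (SD, n = 10) with Fc and 7.45 ± 2.29 CPM (SD, n = 10) with Fc(mML1)B3, and its log2 fold change of -0.24 had a 95% interval of -0.61 to 0.13. Without mice 7 and 8 it was -0.042.

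For the monocyte axis, Ccl2 was at 3.53 ± 1.14 CPM (SD, n = 10) with Fc and 3.25 ± 0.490 CPM (SD, n = 10) with Fc(mML1)B3. Its log2 fold change was -0.11, with a 95% interval of -0.45 to 0.23, and -0.024 without Fc mouse 4 or -0.18 without Fc mouse 1. Ccr2, the receptor carried by the monocytes that CCL2 attracts, ranged from 4.79 to 14.4 CPM in the Fc mice and from 4.91 to 15.9 CPM in the treated mice, and its log2 fold change was -0.18 (-0.59 to 0.23). The 9 treated mice other than mouse 5 all lay below the Fc median of 10.7 CPM, and without mouse 5 the log2 fold change was -0.30 (adjusted p = 0.251 from edgeR). Cxcl16 had a median of 26.6 CPM in the Fc mice and 21.0 CPM in the treated mice, and a log2 fold change of -0.28 (SE 0.16, adjusted p = 0.247 from edgeR). Here 1 library decided the call. Treated mouse 5 held 42.4 CPM, the highest of all 36 mice, and without it the log2 fold change was -0.41 (adjusted p = 0.0341 from edgeR).

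Among the ligands of granulocytes and macrophages, Cxcl1 was at 11.9 ± 5.00 CPM (SD, n = 10) with Fc and 10.5 ± 2.17 CPM (SD, n = 10) with Fc(mML1)B3, and its log2 fold change was -0.17 (-0.55 to 0.21), or -0.024 without Fc mouse 6. Ccl6 was at 29.3 ± 8.66 and 28.2 ± 6.93 CPM (SD, n = 10 each), with a log2 fold change of -0.05 (-0.38 to 0.28). Ccl24 ranged from 0.295 to 4.12 CPM in the Fc mice and from 0.327 to 5.47 CPM in the treated mice. Both groups spread so widely that its interval ran from -0.45 to 1.41, and these values do not settle its direction. The treated mice differed by library series, with 2.505 to 5.47 CPM in mice 1 to 4 and 0.327 to 2.97 CPM in mice 5 to 10. Cxcl12 was at 571 ± 59.8 CPM and 588 ± 85.9 CPM (SD, n = 10 each), a log2 fold change of 0.05 whose interval of -0.14 to 0.23 was the narrowest of the 10.

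Under the standard diet, Cxcl12 was the only member that passed the test between Fc(mML1)B3 and Fc. It was at 426 ± 27.7 CPM (SD, n = 9) with Fc and rose 1.14-fold, to 486 ± 31.2 CPM (SD, n = 7), with Fc(mML1)B3 (log2 fold change 0.19, SE 0.05, adjusted p = 0.0128 from edgeR). Fc mice ranged from 384 to 481 CPM with a median of 428, treated mice from 430 to 517 CPM with a median of 495. All 7 treated mice lay above the Fc median and the groups overlapped. Among the 13570 genes tested 16.1% were called (8.56% higher and 7.55% lower), so that 1 member of 10 is near the background. Cxcl12 was also the 1 member at an unadjusted p below 0.05, where 29.3% of genes were. The groups failed to overlap for 2.9% of these genes and for no member. Within the series that holds both groups, 4 Fc against 7 treated mice, the log2 fold change of Cxcl12 was 0.17 (unadjusted p = 0.00935, adjusted p = 0.0879 from edgeR), which no longer passed.

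The other 9 genes did not pass under the standard diet. Cxcl1 ranged from 4.23 to 26.7 CPM with a median of 9.69 in the Fc mice and from 5.44 to 9.28 CPM with a median of 8.11 in the treated mice. All 7 treated mice lay below the Fc median, and the log2 fold change was -0.50 (SE 0.28, adjusted p = 0.248 from edgeR). The highest Fc value was that of mouse 5, the animal high in neutrophil markers, and without it the log2 fold change was -0.20 (adjusted p = 0.544). Ccl2 ranged from 1.30 to 3.78 CPM with a median of 1.84 in the Fc mice and from 1.31 to 2.401 CPM with a median of 2.06 in the treated mice, with a log2 fold change of -0.23 (-0.68 to 0.22). Its median was higher and its mean lower in the treated mice, the latter through Fc mice 2 and 5 at 3.78 and 3.58 CPM. Ccr2, Ccl6 and Cxcl16 had log2 fold changes of -0.15, -0.22 and -0.08, each with an interval that spans 0.

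Cxcl9, Cxcl10 and Ccl5 had log2 fold changes above 0 under the standard diet, none of which passed. Cxcl10 ranged from 3.30 to 6.91 CPM with a median of 4.52 in the Fc mice and from 4.00 to 7.47 CPM with a median of 6.25 in the treated mice, a log2 fold change of 0.32 (SE 0.16, adjusted p = 0.202 from edgeR). Cxcl9 had medians of 17.0 and 17.2 CPM and a log2 fold change of 0.20 (-0.20 to 0.60), or 0.058 without treated mouse 7. Ccl5 had medians of 3.90 and 3.27 CPM but a log2 fold change of 0.25, which rested on treated mouse 7 at 11.6 CPM. Without that mouse it was -0.16. Ccl24 had medians of 1.76 and 2.27 CPM, with an interval of -0.34 to 0.96, and no fit without 1 library called it.

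**Figure D2:**
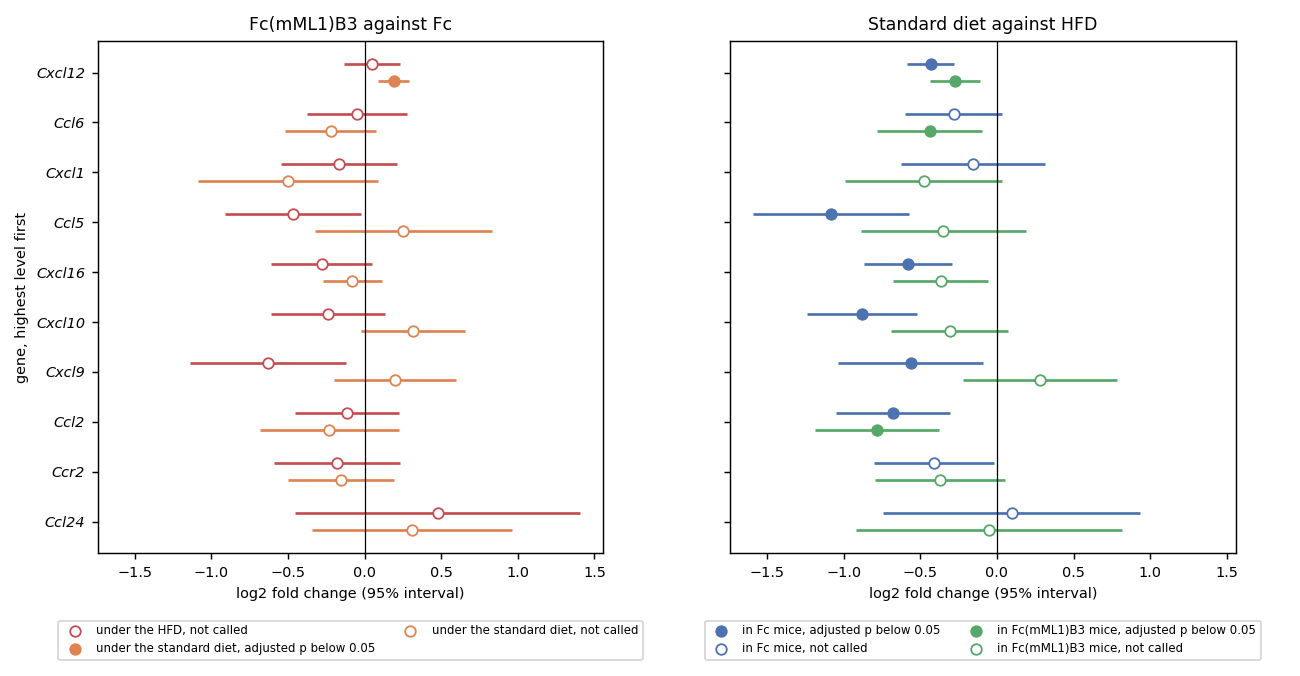
Log2 fold change (x axis) with its 95% interval (line) for each gene (y axis, highest level first) between Fc(mML1)B3 and Fc (left) and between the diets (right). Filled points passed an adjusted p below 0.05 in edgeR, and on the left only Cxcl12 under the standard diet is filled, at 0.19.

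The effect of Fc(mML1)B3 was compared between the diets with an interaction term over all 36 libraries. None of the 10 genes passed (0 of 10 by edgeR and by DESeq2), where 9.06% of 14105 genes did, 4.4% lower and 4.66% higher. At an unadjusted p below 0.05, where 21% of genes were, there were 2 members, Cxcl9 with a difference of 0.84 on the log2 scale (SE 0.34, p = 0.0178, adjusted p = 0.125 from edgeR) and Cxcl10 with 0.57 (SE 0.26, p = 0.0319, adjusted p = 0.18 from edgeR). Without HFD Fc mice 7 and 8 these were 0.43 and 0.36 (adjusted p = 0.392 and 0.41). Ccl5 followed with 0.73 (interval -0.0020 to 1.47), or 0.31 without treated standard diet mouse 7. These 3 genes had values below 0 under the HFD and above 0 under the standard diet. Diet, length of treatment, number of injections and experiment cannot be told apart here.

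More members were called between the diets than between the treatments. In Fc mice, 6 of 10 were lower under the standard diet than under the HFD and none was higher, where 24.6% of 14105 genes were lower, 23.3% higher and 47.9% were called in either direction. Ccl5, with 8.27 ± 3.39 CPM (SD, n = 10) under the HFD against 3.91 ± 0.969 CPM (SD, n = 9), had the largest fold, with a log2 fold change of -1.08 (SE 0.25, adjusted p = 0.000562 from edgeR), and all 9 standard diet mice were below the HFD median. Cxcl10 fell from 8.79 ± 2.67 to 4.78 ± 1.16 CPM (SD, n = 10 and 9), a log2 fold change of -0.88 (adjusted p = 0.000106 from edgeR). Ccl2 fell from 3.53 ± 1.14 to 2.23 ± 0.877 CPM, or by 0.68 on the log2 scale, Cxcl16 by 0.58 and Cxcl12 by 0.43 (adjusted p = 0.00268, 0.00102 and 1.41e-05). Cxcl9 was called with a log2 fold change of -0.56 (adjusted p = 0.0442 from edgeR), but without Fc mouse 7 of the HFD it was -0.31 (adjusted p = 0.207) and without mice 7 and 8 it was -0.16 (adjusted p = 0.528). The other 5 stayed called without mice 7 and 8 and with the 4 Fc libraries of the later standard diet series. The groups overlapped for all 10 genes, while 9.61% of all genes did not overlap. At an unadjusted p below 0.05 there were 7 members of 10 and 54.2% of all genes, and by the stricter rule there was 1 member, Ccl5, and 4.98% of all genes.

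In the Fc(mML1)B3 mice, 3 of 10 were lower under the standard diet, against 17.9% of all genes lower, 20.7% higher and 38.5% called in either direction. At an unadjusted p below 0.05 there were 4 members and 47.2% of all genes, and the stricter rule left 0 members and 4% of all genes. Ccl2 was at 2.60 to 4.14 CPM in all HFD mice and at 1.31 to 2.401 CPM in all standard diet mice. It was the only member whose groups did not overlap in any of these comparisons (9.77% of all genes did not in this one), and its log2 fold change was -0.78 (SE 0.20, adjusted p = 0.00208 from edgeR). Cxcl12 fell by 0.28 and Ccl6 by 0.44 on the log2 scale (adjusted p = 0.00674 and 0.0376 from edgeR). The call of Ccl6 was lost in 9 of the 36 fits that left out a library. Ccl5 had a log2 fold change of -0.35 (adjusted p = 0.309), but without treated standard diet mouse 7 it was -0.77 (adjusted p = 0.0116 from edgeR). Cxcl16 lay at the threshold, with -0.37 and an adjusted p of 0.0558, and was called by DESeq2 (adjusted p = 0.0342), with upper-quartile scaling (0.0231) and with halved counts (0.0421), which each called 4 of 10. Cxcl9 had a log2 fold change of 0.28 (-0.22 to 0.79) and was the only member with a value above 0 here. Ccr2, Cxcl1 and Ccl24 were called in neither comparison of the diets in the main fit. With upper-quartile scaling Ccr2 was called lower in Fc mice (log2 fold change -0.50, adjusted p = 0.0356 from edgeR). These comparisons also compare experiments and library series, which cannot be told apart from the diet, and all 4 groups entered their fit.

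Several receptors of the member ligands were lower under the standard diet, as were 24.6% of all genes in Fc mice and 17.9% in treated mice. Cxcr3, the receptor gene for CXCL9 and CXCL10, ranged from 1.31 to 4.58 CPM in HFD Fc mice and from 0.426 to 1.52 CPM in standard diet Fc mice, and fell by 1.51 on the log2 scale (adjusted p = 1.97e-05 from edgeR). In the Fc(mML1)B3 mice Cxcr3 fell by 1.03 (adjusted p = 0.00447 from edgeR). Cxcr4, a receptor of CXCL12, fell by 1.05 and 0.79 between the diets in the Fc and treated mice, and Ackr3, its scavenging receptor, by 0.82 and 1.35. Cxcr6, the receptor of CXCL16, fell by 0.82 in Fc mice (adjusted p = 0.0329), and had a log2 fold change of -0.60 in treated mice that did not pass. Ccr1, Ccr3 and Cxcr2 had means of at most 1.36 CPM in every group and were called in none of those in which they were tested. Between Fc(mML1)B3 and Fc, Ccr3 did not pass the filter on low counts and none of Ccr1, Cxcr2, Cxcr3, Cxcr4, Cxcr6 and Ackr3 was called under either diet. Their log2 fold changes ran from -0.68 for Cxcr2 to 0.06 for Ackr3 under the HFD and from -0.59 for Ccr1 to 0.12 for Cxcr3 under the standard diet.

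The other genes of the chemokine system were counted in the same way. Of 29 other ligands 16 passed the filter in the HFD experiment and 15 in the other, and of 22 other receptors 16 did under each diet. None was called between Fc(mML1)B3 and Fc by edgeR or DESeq2, with 2 ligands and 1 receptor at an unadjusted p below 0.05 under the HFD and 2 of each under the standard diet, where 14.8% and 16.1% of all genes were called and 29.8% and 29.3% had such a p. With no filter on low counts, or with treated libraries S1 to S6 (mice 5 to 10), edgeR called 1 ligand lower under the HFD. In the interaction 0 of 16 ligands and 0 of 17 receptors were called by either tool, against 9.06% of all genes, with 1 and 0 at an unadjusted p below 0.05, and edgeR called 1 ligand with no filter. Under the HFD 13 of 16 in each list had values below 0, with medians of -0.21 and -0.33 on the log2 scale, against 51.7% of all genes. In Fc mice, edgeR called 7 of 16 ligands and 8 of 17 receptors lower under the standard diet and none higher, while DESeq2 called 1 receptor higher and edgeR 1 ligand without HFD mice 7 and 8, where 24.6% of all genes were lower and 47.9% were called in either direction. Xcl1, which attracts cross-presenting dendritic cells, was at 1.28 ± 0.572 CPM (SD, n = 10) under the HFD and at 0.381 ± 0.129 CPM (SD, n = 9, a median of 8 reads) under the standard diet, and passed the filter through its HFD level alone. Its receptor Xcr1 fell by 1.12. Ccl19, a lymphoid ligand of CCR7, fell by 1.20, Cx3cl1 by 1.17 and Ccl3 by 0.99. In the treated mice 7 ligands and 6 receptors were lower, against 17.9% of all genes, and Ccl9 was 0.41 higher (adjusted p = 0.00936 from edgeR).

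Interferon-gamma is an inducer of Cxcl9 and Cxcl10. Of the 22 tested genes of its pathway, 8 were lower with Fc(mML1)B3 under the HFD and none higher by edgeR or DESeq2, and all 22 had values below 0 with a median of -0.35, where 6.68% of all genes were lower, 8.14% higher and 51.7% below 0. The antigen-processing genes Tap1 and Psmb9 fell by 0.59 and 0.70 on the log2 scale (adjusted p = 0.000192 and 0.00116 from edgeR), the receptor chain Ifngr2 by 0.44, the GTPase gene Gbp7 by 0.48 and Cd274, which encodes PD-L1, by 0.56. Tap1 ranged from 23.3 to 40.95 CPM in Fc mice and from 17.7 to 27.1 CPM in treated mice. Without Fc mice 7 and 8 the fit called 4 of 22, with a median of -0.23, and with the treated libraries of 1 series only it called 1 (4 libraries) or 6 (6 libraries). Under the standard diet Ifngr2 fell by 0.24 and the GTPase gene Igtp rose by 0.57 (adjusted p = 0.0315 and 0.0107 from edgeR), and the median of the list was -0.03, where 7.55% of all genes were lower and 8.56% higher. Both calls used all Fc libraries of that diet, 5 of which share no library series with treated mice. In the interaction, 5 of 22 were called, all in the direction of a higher effect under the standard diet, where 4.66% of all genes were called in that direction and 9.06% in either. These were Igtp (0.99), Psmb9 (0.91), Tap1 (0.68), Irgm2 (0.66) and Gbp7 (0.63), and 5 were called without mice 7 and 8 as well. Cxcl9 and Cxcl10, with 0.84 and 0.57, had standard errors of 0.34 and 0.26, against 0.16 to 0.21 for these 5. Between the diets in Fc mice 8 of 22 were lower and 2 higher, with a median of -0.25, and without mice 7 and 8 the fit called 5 lower and 1 higher. Psmb9, the transcription factor gene Irf8, Psmb8 and Tap1 were lower there by 1.01, 0.75, 0.62 and 0.48, and the kinase gene Jak1 was 0.37 higher. In the treated mice 3 were lower, Irf8 (-0.41) among them, and 5 were higher, among them Jak1 (0.38), Irgm2 (0.73), Igtp (0.70) and the GTPase gene Iigp1 (0.46), with a median of 0.024. The shares over all genes were 24.6% lower and 23.3% higher for Fc mice, and 17.9% and 20.7% for treated mice.

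**Figure D3:**
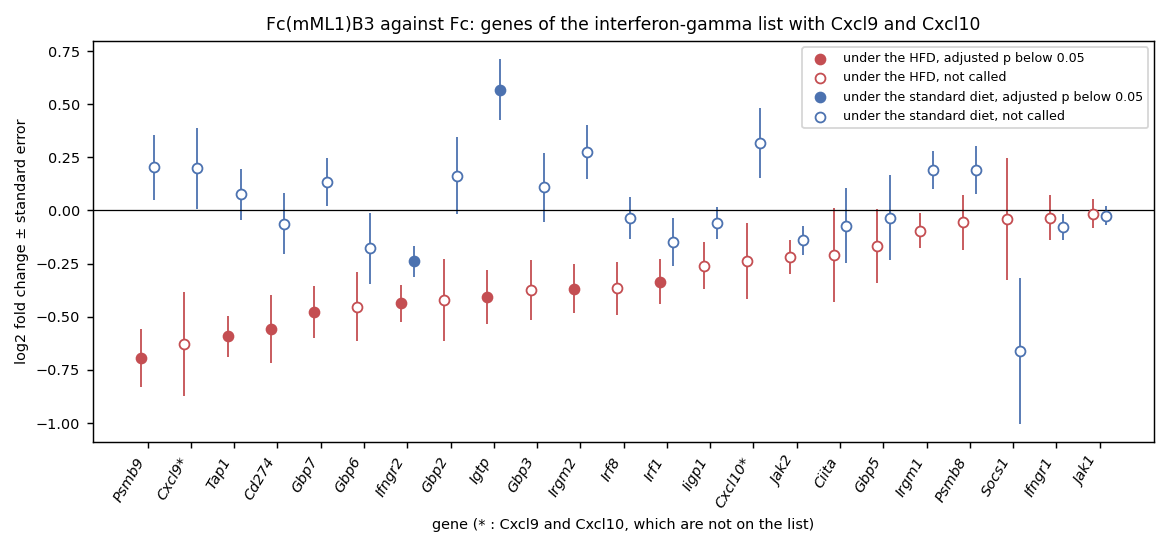
Log2 fold change between Fc(mML1)B3 and Fc (y axis, with its standard error) of 21 of the 22 tested genes of the interferon-gamma list and of Cxcl9 and Cxcl10 (x axis, ordered by the value under the HFD). The remaining gene of the list is not shown. All 23 red values (HFD) lie below 0, while the blue ones (standard diet) lie on both sides, and filled points passed an adjusted p below 0.05 in edgeR.

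The NF-kB list, which holds transcription factors, inhibitors, inducing cytokines and adhesion molecules, had 3 of 17 genes lower under the HFD (Il1a, Il18 and the inhibitor Nfkbia, by 0.44, 0.35 and 0.31) and none higher by edgeR or DESeq2, where 6.68% of all genes were lower. Without Fc mice 7 and 8 the fit called 2 of 18 lower and 1 higher, and the median of the list was -0.11 in place of -0.28. With treated libraries S1 to S4 (mice 1 to 4) it called 0, with S1 to S6 (mice 5 to 10) 2 lower, and DESeq2 called 5. Under the standard diet 3 of 18 were lower (the subunits Nfkb2 and Relb and the endotoxin receptor Tlr4, by 0.39, 0.49 and 0.37) and 1 was higher, the adhesion molecule Vcam1, by 0.32, where 7.55% and 8.56% of all genes were. These standard diet calls used all Fc libraries, 5 of which share no library series with treated mice. Only Il18 was called in the interaction, with 0.51. In Fc mice 9 of 18 were lower under the standard diet, led by Nfkbia (-0.60), Vcam1 (-0.87) and Icam1 (-0.50), against 24.6% of all genes, and in the treated mice 8 of 18 were lower, among them Myd88 (-0.30) and Vcam1 (-0.68), against 17.9%. The subunit gene Rel was called higher in both, but it passed the filter through the standard diet groups alone, with 1.96 ± 0.368 CPM (SD, n = 9) in Fc mice there and 0.345 ± 0.222 CPM (SD, n = 10, a median of 6 reads) in HFD Fc mice. The median changes of this list were -0.28, -0.13, -0.30 and -0.20 for the treatment under the HFD, the treatment under the standard diet, and the diets in Fc and in treated mice.

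Markers of the cells that make or answer these chemokines were counted beside them. In a piece of liver, fewer cells of a type and less RNA per cell cannot be told apart. The summed level of 12 monocyte and macrophage markers was 1022 to 2369 CPM in HFD Fc mice, 883 to 2218 CPM in HFD treated mice, 766 to 1414 CPM in standard diet Fc mice and 590 to 1142 CPM in standard diet treated mice. All 12 had values below 0 under the HFD treatment (median -0.42), although edgeR called 0 of 12, DESeq2 2, and 7 had an unadjusted p below 0.05, as did 29.8% of all genes. Between the diets in Fc mice 9 of 12 were lower (6 without mice 7 and 8), and the same held for 9 of 12 T and NK cell markers (9 without them), whose summed level was 9.83 to 36.6 CPM in the HFD Fc mice and 9.02 to 14.9 CPM in the standard diet Fc mice. Neutrophil markers, with 14.1 to 82.4 CPM in HFD Fc mice and 11.6 to 22 CPM in HFD treated mice, had 4 of 5 tested genes lower with Fc(mML1)B3 and a median of -1.27 on the log2 scale, where 6.68% of all genes were lower. Without Fc mice 7 and 8, whose removal leaves Fc values of 14.1 to 25.1 CPM, 0 of 5 were called and the median was -0.41, and with either treated library series alone 0 of 5 were. B cell markers had 4 of 7 lower, and 2 of 7 without mice 7 and 8. The median of the monocyte and macrophage markers was then -0.23. Between the diets in Fc(mML1)B3 mice, 4 of 12 monocyte and macrophage markers and 2 of 12 T and NK cell markers were lower. Of the other lists in Fc mice, 6 of 9 stellate cell and fibroblast, 5 of 7 B cell, 3 of 6 dendritic cell, 2 of 5 cholangiocyte, 2 of 6 neutrophil, 1 of 8 Kupffer cell and 1 of 8 sinusoidal endothelial cell markers were lower under the standard diet, where 24.6% of all genes were. Higher there were 4 of 9 hepatocyte markers (Cps1, Hnf4a, Fgb and Ahsg), the stellate cell and fibroblast marker Rgs5 and the endothelial marker Kdr, against 23.3% of all genes. In the treated mice 5 of 9 stellate cell and fibroblast, 3 of 6 dendritic cell, 3 of 5 cholangiocyte, 3 of 8 sinusoidal endothelial cell, 1 of 6 neutrophil, 1 of 8 Kupffer cell and 1 of 9 hepatocyte markers were lower, against 17.9% of all genes. Higher there were 2 hepatocyte markers (Cps1 and Ahsg), 1 of 7 B cell markers (Cd79a, which DESeq2 did not call), 1 stellate cell and fibroblast marker and Kdr, against 20.7%. The 1 eosinophil marker tested by edgeR was called in neither, and DESeq2, which took in 4, called 1 of them lower in Fc mice. In the interaction, where 9.06% of all genes were called, 4 of 7 B cell markers were (Mzb1, Cd79b, Ms4a1 and Cd79a, with a list median of 0.92), all in the direction of a higher effect under the standard diet, and 1 of 9 hepatocyte markers (Hnf4a) was called in the other direction, with 0 calls in the other 9 marker lists by edgeR or DESeq2 and 5 of their markers at an unadjusted p below 0.05. For the treatment under the standard diet, where Cxcl12 was called, 2 of 12 monocyte and macrophage markers (Cd9 and Gpnmb), 2 of 9 stellate cell and fibroblast markers (Pdgfrb and Des), 1 of 9 hepatocyte markers (Fgb) and 1 of 5 cholangiocyte markers (Sox9) were lower, and 2 hepatocyte markers (Cps1 and Serpina1c) and 1 of 8 sinusoidal endothelial cell markers (Fcgr2b) were higher, where 16.1% of all genes were called, 7.55% lower and 8.56% higher. No neutrophil, Kupffer, T and NK, B, dendritic or eosinophil marker was called there by edgeR, with 3 B cell markers and none of the others at an unadjusted p below 0.05, and DESeq2 called 1 B cell marker higher. Marker calls for this comparison used all Fc libraries of the diet, 5 of which share no library series with treated mice. Under the HFD, Kupffer cell markers had 0 of 8 called by edgeR, with 2 at an unadjusted p below 0.05 and 1 called by DESeq2. Of the remaining lists under the HFD, 1 of 9 hepatocyte markers was called (Hnf4a, higher), and 0 of 11 T and NK cell, 0 of 6 dendritic cell, 0 of 9 stellate cell and fibroblast, 0 of 8 sinusoidal endothelial cell, 0 of 5 cholangiocyte and 0 of 1 eosinophil markers were, by edgeR and by DESeq2, with 3, 0, 1, 4, 0 and 0 at an unadjusted p below 0.05. No list had a marker at 0 in all libraries of a group. The part of cell numbers in the chemokine values was not tested.

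Within groups, mice that were high in a chemokine were high in particular others. Log2 CPM was centred within each of the 4 groups, and the 45 pairs of members were compared over the 36 mice by permutation within groups with 100000 resamples, 2-sided, with Benjamini-Hochberg adjustment over the pairs, and 6 pairs had an adjusted p below 0.05 for r. Ccl5 and Cxcl9 had the highest r, 0.68 (permutation p = 2e-05, adjusted p = 0.0009, rho 0.68 with adjusted permutation p = 0.0009), followed by Cxcl16 with Ccr2 at 0.66 (permutation p = 6e-05, adjusted p = 0.00135, rho 0.58 with adjusted permutation p = 0.00705) and Cxcl9 with Cxcl10 at 0.63 (permutation p = 0.00011, adjusted p = 0.00165, rho 0.63 with adjusted permutation p = 0.00202). Without the 2 mice farthest out in the first gene these were 0.64, 0.58 and 0.57, and centred within library series they were 0.68, 0.67 and 0.69. The first pair held in each group, with r from 0.54 to 0.84, and so did the second, with 0.52 to 0.90. Cxcl9 and Cxcl10 had r of 0.77 and 0.63 in the HFD groups and 0.88 in the treated standard diet group, but 0.13 in the standard diet Fc group. Ccl5 and Cxcl10 had r 0.50 (permutation p = 0.00233, adjusted p = 0.021, rho 0.48 with adjusted permutation p = 0.0407, 0.46 without the 2 farthest mice), and 0.099 in the standard diet Fc group against 0.56 to 0.63 in the other groups. Ccl24 went the other way from Cxcl12, at -0.57 (permutation p = 0.00186, adjusted p = 0.0209, rho -0.59 with adjusted permutation p = 0.00866), though r was 0.0014 in the treated standard diet group. It did so too with Ccr2, at -0.50 (permutation p = 0.00417, adjusted p = 0.0313), although rho was -0.44 and did not pass (adjusted permutation p = 0.0544) and r was -0.035 in the standard diet Fc group. Without the 2 farthest mice these were -0.54 and -0.38. Centred within library series they were -0.47 and -0.49, and Ccl5 with Cxcl10 was 0.53. The permutations did not keep the library series of a group apart, so that their p-values include shifts between series.

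The members were also set against the mean log2 CPM of 10 marker lists, 100 relations in all, with the same permutations, and 39 had an adjusted p below 0.05 for r. Cxcl16 followed the monocyte and macrophage markers, with r 0.85 overall (rho 0.82, 0.78 without the 2 farthest mice, 0.77 to 0.93 in the groups). Ccl5 followed the T and NK cell markers, with r 0.79 (rho 0.84, 0.77 without the 2 farthest, 0.60 to 0.91 in the groups). Ccr2 followed the monocyte and macrophage markers (r 0.74, rho 0.72, 0.74 without the 2 farthest) and the cholangiocyte markers (r 0.77, rho 0.73, 0.71 without the 2 farthest), and Cxcl16 followed the cholangiocyte markers too (r 0.78, rho 0.75, 0.72 without the 2 farthest). Ccl24 went with Kupffer cell markers at r 0.75 (rho 0.74, 0.66 without the 2 farthest) and with hepatocyte markers at 0.78 (rho 0.77, 0.73 without the 2 farthest), though in the treated standard diet group these were 0.41 and 0.34. Ccl6 went with neutrophil markers at r 0.61 (rho 0.64, 0.60 without the 2 farthest), though in the standard diet Fc group it was 0.28. The strongest relations below 0 were those of Ccl24 with stellate cell and fibroblast markers (r -0.70, rho -0.59, -0.54 without the 2 farthest) and of Ccr2 with sinusoidal endothelial cell markers (r -0.69, rho -0.65, -0.68 without the 2 farthest), though the former was 0.040 in the treated standard diet group and the latter -0.23 in the standard diet Fc group. Adjusted permutation p-values of these 10 relations ran from 0.000143 to 0.000539 for r and from 0.0002 to 0.003136 for rho, the lowest raw value being 1e-05, the smallest the resamples can give. Centred within library series, those of the 10 above 0 had r from 0.64 to 0.85, and the 2 below 0 had -0.72 and -0.69. All values come from the same libraries and share their depth and scaling.

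**Figure D4:**
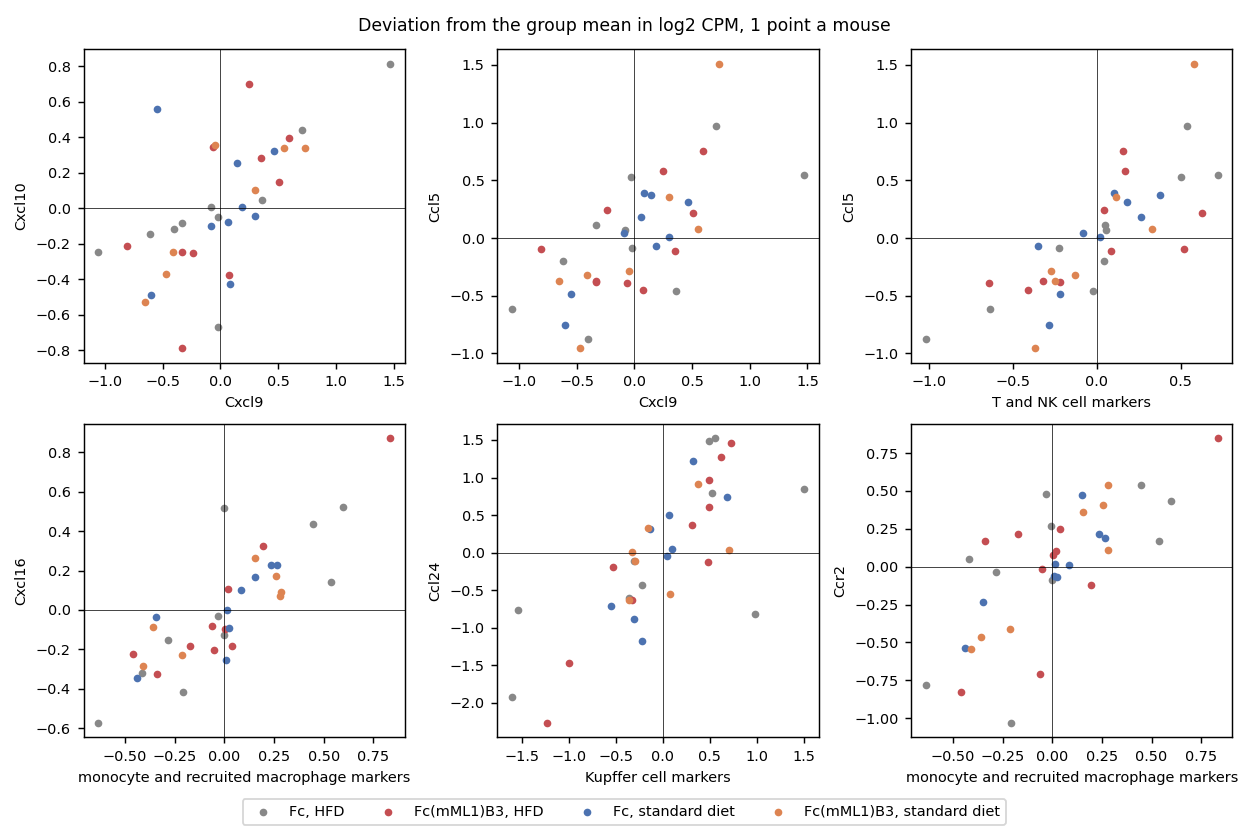
Deviation of each mouse from its group mean in log2 CPM, for pairs of genes and for genes against the mean of a marker list (axes as labelled), coloured by group. Ccl5 rises with T and NK cell markers (r 0.79), Cxcl16 and Ccr2 with monocyte and macrophage markers (r 0.85 and 0.74) and Ccl24 with Kupffer cell markers (r 0.75).

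Among the other 14104 genes, those most like each member in the same deviations are given as a description over 36 mice. Cxcl9 was close to the interferon-inducible genes Gbp2 (r 0.78) and Tgtp1 (0.76), and Cxcl10 to the interferon-inducible GTPase genes Irgm2 (0.72) and Igtp (0.69), with Gm12250 (0.71) between them. Ccl5 was closest to Cd8a, a chain of the T cell co-receptor CD8 (0.74), then to Aoah (0.69) and Tgtp1 (0.69). Ccl24 was closest to Fcna and Clec4f, both markers of Kupffer cells (0.86 each), and to Cyp4b1 (0.85), and Ccl6 to the macrophage metal transporter gene Slc11a1 (0.82), the lysosomal protease gene Lgmn (0.81) and AI607873 (0.81). Cxcl1 was closest to Lcn2 (0.78), Steap4 (0.73) and Orm2 (0.73), of which Lcn2 and Orm2 encode acute-phase proteins. Cxcl16 was closest to Clic1 (0.89) and to the MHC class II genes H2-Aa (0.88) and H2-Eb1 (0.87). Ccr2 was closest to Cftr, a chloride channel of bile duct cells (0.84), Sestd1 (0.84) and Tes (0.84). Ccl2 was closest to Calhm2 (0.65), Srsf9 (0.65) and Gm6402 (0.59), and Cxcl12 was closest to the zinc finger genes Zfp950 (0.77) and Zfp273 (0.77) and to Pdk4 (0.76).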

How the data were processed

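Liver RNA of 36 mice was sequenced with the MGIEasy RNA Directional kit on the DNBSEQ-G400. The authors trimmed reads with fastp, removed ribosomal reads with Bowtie2 2.4.5, aligned with STAR 2.7.10a to mm10 and counted with featureCounts of Subread 2.0.3, and the deposited values are raw counts per gene. Strand was not used and each end of a pair counted as a read (65.3% to 72.6% of low counts were even), so that counting error is larger than the counts imply, and intervals are those of the fits. Total counts ranged from 14949035 to 28466853 per library. No 2 libraries of a group were duplicates (147 pairs, lowest chi-square per degree of freedom 6.305).

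Groups came from the sample titles. Counts were tested with edgeR 4.0.16 (R 4.3.3, limma 3.58.1; quasi-likelihood, TMM, filterByExpr) across all genes, for the treatment within each diet on that diet's mice and for the interaction and the diets on all 36, with Benjamini-Hochberg adjustment and a call at an adjusted p below 0.05. All 10 members passed the filter in every comparison. On simulated counts with 200 genes changed 2-fold the fit recovered 99.5% (treatment, HFD), 99.5% (treatment, standard diet), 84.5% (interaction), 100% (diets, Fc) and 99.5% (diets, Fc(mML1)B3) of them, and in the same order 6.57%, 5.24%, 4.52%, 3.85% and 1.97% of its calls were false. The simulation gave every gene the same dispersion of 0.05 and changed only genes above 2 CPM. It is no measure of power for the members, whose changes with treatment were smaller than 2-fold. Correlations used python 3.11.15, scipy 1.17.1, numpy 2.4.6 and pandas 2.3.3. Alternatives were DESeq2 1.42.0, upper-quartile scaling, other filters, halved counts, other thresholds, library series, the replicate number as a block and leaving out each library. Leaving out HFD Fc mice 7 and 8 was planned for the treatment under the HFD from earlier results of these data. Its use for the interaction and the diets, and the diets with the later standard diet series alone, were chosen after seeing the data. The labels do not say whether same-numbered mice share anything, and their deviations rarely went together. Their correlation was over 0.1 in 1 of 10 pairs under the HFD, where it ran from -0.62 to 0.26, and in 0 of 7 under the standard diet. Between the diets it was over 0.1 in 1 of 9 pairs of Fc mice and 2 of 7 pairs of treated mice.

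The members and the gene lists were chosen with earlier results of these data known. Named were all members, the receptors of the member ligands, up to 5 called genes of each pathway list by adjusted p, and the 3 genes most like each member. Values of some genes under this rule are not reported here. Promoter windows came from RefSeq on GRCm38.p6.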

Additional observations from a re-analysis of the deposited data

Results flagged for a closer look

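In 5 of the 40 sets of mice formed by a gene and a group, a single mouse lay far from the others by Dixon's criterion, which chance alone meets in about 1 of 20. Ccl5 was at 11.6 CPM in Fc(mML1)B3 mouse 7 of the standard diet, where the next was at 5.18 CPM. Cxcl1 was at 26.7 CPM in Fc mouse 5 of the standard diet, against 12.6 CPM in the next. Cxcl9 was at 59.6 CPM in Fc mouse 7 of the HFD, against 35.1 CPM. In Fc(mML1)B3 mouse 5 of the HFD, Cxcl16 was at 42.4 CPM and Ccr2 at 15.9 CPM, against 28.9 and 10.4 CPM in the next. Some marker lists of these mice, picked after seeing the values, were high in their group. T and NK cell markers summed to 19.1 CPM in the first, the highest of its group, with 14.9 CPM in the next. Neutrophil markers summed to 79.8 CPM in the second and 81.2 CPM in the third, below Fc mouse 8 at 82.4 CPM. In the last, monocyte and macrophage markers summed to 2218 CPM and cholangiocyte markers to 178.2 CPM, both the highest of their group. Its hepatocyte, Kupffer cell and sinusoidal endothelial cell markers, at 78001, 59.0 and 261.6 CPM, were the lowest of that group. The part of these cells in the values was not tested.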

How the results depend on the processing

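Under every alternative the members called between Fc(mML1)B3 and Fc under the HFD, and in the interaction, stayed at 0, except that 1 was called lower without Fc mouse 2 (Cxcl9) or without treated mouse 5 (Cxcl16), a range of 0 to 1. Under the standard diet, Cxcl12 was called in each fit without 1 library and by DESeq2, but 0 members were called with the replicate block (adjusted p = 0.103), in the later library series, at an adjusted p below 0.1 with a fold above 2, and at an adjusted p below 0.05 with a fold above 1.5. Between the diets, an adjusted p below 0.1 with a fold above 2 left 1 member lower in Fc mice and 0 in treated mice. Without 1 library, 5 to 7 members were lower in Fc mice, Cxcl9 losing its call in 14 of 36 fits and Ccr2 gaining one in 3 (without HFD Fc mice 3 or 5, or standard diet Fc mouse 5), and 2 to 4 in treated mice, where Cxcl16 gained a call in 17 fits. Genes called under the HFD numbered 1972, and 1294 with the replicate block, 705 with treated libraries S1 to S4 (mice 1 to 4) and 178 by the stricter rule of an adjusted p below 0.1 with a fold above 2, in which both limits differ. Under the standard diet they numbered 2186, and 1302 with the block, 942 in the later series, 82 by the stricter rule and 320 at an adjusted p below 0.05 with a fold above 1.5. In the interaction they numbered 1278, and 794 with the block and 271 by the stricter rule. Between the diets they numbered 6759 in Fc mice (4443 in the later series, 702 by the stricter rule) and 5434 in treated mice (564 by that rule). The labels do not say that the replicate numbers pair the mice. With the replicate block between the diets, Cxcl9 in Fc mice (-0.42) and Cxcl12 in treated mice (-0.19) lost their calls, and Cxcl1 (-0.55) and Cxcl16 (-0.39) in treated mice gained one. Cxcl9 in Fc mice also lost its call with no filter on low counts and with that at 0.5 CPM (adjusted p = 0.0573 and 0.0530 from edgeR). Upper-quartile scaling called 7 members lower in Fc mice, with Ccr2 gaining a call.

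Log2 fold changes that had not passed turned sign, and the cause was not tested. Without Fc mice 7 and 8 under the HFD, Ccl2 was 0.029 and Ccl6 0.15. With treated libraries S1 to S4 (mice 1 to 4), Ccl6 was 0.21 and Cxcl12 -0.092, and with S1 to S6 (mice 5 to 10) Ccl24 was -0.36. With the replicate block, Ccl5 under the standard diet was -0.025 and Ccr2 in the interaction -0.039, or -0.038 without mice 7 and 8. Ccl24 in Fc mice was -0.35 between the diets in the later series. Without 1 library, Ccl6 under the HFD ran from -0.098 to 0.047 and Ccl5 under the standard diet from -0.16 to 0.38. In the interaction Ccl2 ran from -0.20 to 0.022, Ccl24 from -0.39 to 0.062 and Ccr2 from -0.061 to 0.17. Between the diets Ccl24 ran from -0.11 to 0.33 in Fc mice and from -0.28 to 0.14 in treated mice. With upper-quartile scaling the share of calls that were lower went from 45.1% to 55.4% under the HFD, from 51.4% to 65.5% between the diets in Fc mice and from 46.4% to 63.2% in treated mice. Ccl24 had the lowest counts, with a median of 41.5 reads, and the part of depth in its spread was not tested.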
